A study of Rattus norvegicus with 4 samples.

Results

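Hippocampal RNA of rats that ran against a resistance (RWR) was set against that of rats that ran without one (WR). Both had been hybridized beside RNA of sedentary rats, which served here as the common reference. Of 41012 noncontrol probes of the array, 24949 exceeded background clearly in each dye on each of the 4 chips, at spots without an outlier flag, and these probes were compared. Of these, 7371 had a gene symbol, for 5927 genes. The comparison asks how running with a load on the wheel differs from running without one. The study reports a shorter daily distance and higher work levels in RWR than in WR, so load and distance cannot be told apart. Transcripts of a thyroid hormone carrier (Ttr) and of the neuropeptide galanin (Gal) were higher in RWR than in WR, whereas transcripts of a nonclassical MHC class I gene (RT1-M6-2) were lower. The difference of RT1-M6-2 was far smaller at its brighter probe, and it fell under 1.5-fold with other background handling. Only 17 probes differed past 1.5-fold in both dye orders, and most of these were dim.

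The rats were male Wistar rats aged 10 weeks, housed one to a cage. Sedentary rats (10) lived in standard cages, WR rats (8) had a running wheel with no resistance, and RWR rats (8) had a wheel whose resistance began at 4.5 g in the first week and was brought up to 30% of body weight. Running was voluntary, with access 24 h a day for 4 weeks, and the hippocampi were taken on the day after the last exercise day. Equal amounts of RNA from several replicates were pooled within each group before labelling, and whether a replicate was 1 rat is not given in the sources used here. The chips were an Agilent 2-colour rat array, in which 2 labelled RNAs compete for each probe. For each running group there were 2 chips, 1 with the sedentary control in Cy3 and 1 with it in Cy5. Both chips of a group carry the same pools and differ only in their dyes, so each group is 1 biological sample and no test between the groups was made. Precision is limited by having only 4 chips. A single sedentary pool is assumed on all chips. Since the hippocampus was measured as bulk tissue, fewer cells of a type and less RNA per cell cannot be told apart.

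Each value is a difference on the log2 scale. The ratio of running over sedentary on the WR chip was subtracted from that on the RWR chip with the same dye order, so that dye bias and the shared control cancel, and the differences of both dye orders were averaged. A value of 1 is a 2-fold difference, and 0.585 is 1.5-fold. A lower limit of 0.322 was used for the gene lists. The spread given is that between the dye orders, which is technical. The differences compare a load on the wheel with none after the same number of weeks, in rats that chose how far to run.

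Running is known to raise neurotrophin signalling, the birth of granule neurons and synaptic plasticity in the hippocampus. BDNF, the neurotrophin most studied there, acts on neurons through the receptor kinase TrkB. Galanin is a neuropeptide of cholinergic and noradrenergic axons that reach the hippocampus. Transthyretin is the main secretory product of the choroid plexus, which lines the ventricle beside the hippocampus.

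Past 1.5-fold in both dye orders, 9 probes were higher in RWR (0.0361% of the probes compared) and 8 were lower (0.0321%). Another 12 probes passed 1.5-fold in opposite directions in the dye orders, which is a measure of the noise. Past the lower limit of 0.322, 116 probes were higher (0.465%) and 127 lower (0.509%), against 234 in opposite directions. The mean difference had an SD of 0.13 across probes, and its median was -0.0017. The deviation of either dye order from that mean had an SD of 0.12, so for a typical probe the difference was hardly larger than its change with the dyes. Across probes the dye orders had a Pearson's r of 0.0761 and a Spearman's rho of 0.134. These correlations describe the chips, since probes share the chip and the pools.

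The likeness of the dye orders depended on the signal. The probes were divided by mean signal into 4 bins of 6237 or 6238. In the dimmest bin, with a median processed signal of 53.4, r was -0.0325, and 4 probes were higher and 6 lower past 1.5-fold. In the next bin, with a median signal of 144, r was 0.142, with 3 probes higher and 1 lower. In the third bin r was 0.498, with 2 higher and 1 lower, and in the brightest, with a median signal of 2903, it was 0.491, with 0 in either direction. The dye orders were thus alike at bright probes and not at dim ones. The SD of the mean difference narrowed from 0.19 in the dimmest bin to 0.068 in the brightest. The 192 eligible probes that were spotted several times, whose spots were averaged, had an r of 0.627. The 17 probes past 1.5-fold lay on the dim side, 14 of them under the median signal of 257 and each was spotted once.

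Ttr encodes transthyretin, the carrier of thyroxine and retinol-binding protein in cerebrospinal fluid and blood. Its ratio over sedentary was -0.72 and -0.99 on the WR chips and 0.20 and 0.04 on the RWR chips. Every WR chip was below 0 and every RWR chip above it, and the groups did not overlap. The difference was 0.92 with the control in Cy3 and 1.03 with the control in Cy5, or 1.97-fold on average. The processed signal was 315 and 267 in the WR channels, 666 and 551 in the RWR channels, and between 520 and 581 in the sedentary channels. The sedentary signal thus changed little between chips, and the running channels set directly against each other gave 0.93 and 1.02. Ttr stayed past 1.5-fold with another background correction and without any, at 0.73 in both cases.

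Ttr was 1 of 18 choroid plexus markers, of which 12 could be named on the chips and 4 were eligible. The eligible markers were Ttr, Folr1, a folate receptor, Trpv4, a cation channel, and Enpp2, the secreted enzyme autotaxin. Folr1 had -0.08 and 0.62 in the dye orders, Trpv4 -0.03 and 0.17, and Enpp2 0.03 and 0.05. Ttr was the 1 eligible marker of this list past 0.322 in both orders. Without Ttr, the summed processed signal of the other 3 markers was 1516 to 1633 in WR, 1728 to 1928 in RWR and 1640 to 1901 in the sedentary channels. Most of each sum was Enpp2, with 1515 and 1413 in WR and 1792 and 1561 in RWR. Its sedentary signal was also higher on the RWR chips, at 1764 and 1640 against 1525 and 1534 on the WR chips. Clic6 was well above background in RWR on both chips, in WR on neither and in 1 sedentary channel. Its signals were 20.85 and 27.87 in RWR and 21.31 and 5.748 in WR. With the control in Cy3 the calls thus differed at nearly equal signals. Sostdc1 was above background in RWR on both chips, in WR on 1 and in all 4 sedentary channels. Its signals were 59.78 and 41.74 in RWR and 28.52 and 15.82 in WR. Its sedentary channels had 33.14 and 55.06 on the WR chips and 40.85 and 54.67 on the RWR chips. Slc4a5 went the other way, with 9.134 and 5.992 in RWR and 20.26 and 11.83 in WR, none well above background. Aqp1 was higher on the RWR chips in running and sedentary channels alike. Kcne2, Kl and Prlr were above background in no channel. The part of choroid plexus tissue in the difference of Ttr was not tested.

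Gal encodes galanin and was spotted 10 times on each chip. It stood at -0.45 and -0.33 over sedentary in WR and at 0.11 and 0.19 in RWR. The chips of both groups were again on opposite sides of 0. The difference was 0.56 ± 0.053 (SD over 10 spots) with the control in Cy3 and 0.52 ± 0.027 with the control in Cy5, and it was above 0 at all 10 spots in each order. On average Gal was 1.45-fold higher in RWR, just under the 1.5-fold limit. The running channels alone gave 0.51 and 0.49, and the sedentary channels -0.05 and -0.03. Gal was the 1 gene past 0.322 in both orders among 23 neuropeptides and interneuron markers. Of these, 10 were above 0 in both orders and 8 below, with a median of 0.0015, where 28.1% of all probes were above 0 in both orders and 28.9% below.

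The 250 bases before the start of Gal in the RefSeq annotation of GRCr8 (chr1:210084573-210084822, minus strand) are shown because Gal had the firmest difference over spots. The capitals mark TGACG, the core of the cyclic AMP response element that CREB binds, searched on both strands. It stood in 18.2% of all 33469 promoter windows of this length, and its presence is a description of the letters only.
Gal: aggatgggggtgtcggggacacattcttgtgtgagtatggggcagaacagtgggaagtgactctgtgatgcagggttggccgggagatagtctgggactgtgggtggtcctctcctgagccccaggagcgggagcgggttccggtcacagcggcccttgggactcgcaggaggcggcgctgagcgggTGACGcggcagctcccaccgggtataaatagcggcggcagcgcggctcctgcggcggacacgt

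Genes of BDNF signalling showed no steady difference. Bdnf, which encodes the ligand of TrkB, had -0.07 and -0.04 at its probe with the highest signal and 0.01 and 0.01 at another that was spotted 10 times. Ntrk2, the gene of TrkB, had 0.01 and -0.10 at its brighter probe and 0.06 and 0.12 at the other. Creb1, which encodes the transcription factor CREB, had 0.21 and -0.10 at one probe and -0.05 and 0.30 at the other. None of these genes had the same clear sign at all of its probes and in both orders.

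RT1-M6-2 belongs to the nonclassical MHC class I genes of the rat. It stood far above sedentary in WR, at 1.40 and 1.73, and less far in RWR, at 0.44 and 0.80. The difference was -0.96 and -0.93 in the dye orders, or 1.93-fold lower in RWR. The WR channels had processed signals of 128 and 112, the RWR channels 69.7 and 52.3, and the sedentary channels 30.0 to 51.3. With normexp background correction the mean difference was -0.29 and without any correction -0.37, both under 1.5-fold. A second, brighter probe of the gene had -0.18 and -0.11, the same direction at a far smaller size. Genes of the RT1 family are near-identical in places, so what each probe detects is uncertain. Of 23 eligible genes of MHC and antigen presentation, 11 were above 0 in both orders and 3 below, against 28.5% and 29.7% of all genes. None of the 23 passed 0.322 by its brightest probe.

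Sectm1b, Prl3d4 and Olr1092 were the other named genes past 1.5-fold, all at dim probes. Sectm1b, which encodes a small secreted and transmembrane protein, had -0.74 and 0.42 in WR and 0.39 and 1.46 in RWR. Within each dye order RWR was the higher chip, by 1.13 and 1.04, but the chips of the groups overlapped. Its running channels had the differences 0.78 and -0.69 and its sedentary channels -0.31 and -1.80, which average 0.05 and -1.05, so the mean difference lay in the sedentary channels. Prl3d4, a member of the prolactin family known from the placenta, had -0.64 and -0.42 in WR and 0.05 and 0.26 in RWR, a difference of 0.69 and 0.68. Olr1092, an olfactory receptor, had 0.48 and 0.16 in WR and -0.17 and -0.77 in RWR, a difference of -0.65 and -0.92. With normexp background correction, Sectm1b had 0.13, Prl3d4 0.34 and Olr1092 -0.33, all under 1.5-fold.

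Of the 17 probes past 1.5-fold, 12 had no gene symbol. The largest difference was that of A_44_P381994, which stood at -1.41 and -1.40 over sedentary in WR and at 1.12 and 1.00 in RWR. The difference was 2.53 and 2.40, or 5.52-fold higher in RWR, but 1.79 with normexp background correction and 1.76 without any. The probe had signals of 105 and 123 in the WR channels and 798 and 631 in the RWR channels. Its sedentary channels lay between 280 and 368, between both running groups. A_44_P178671 had -1.57 and -1.11 in WR and -0.12 and 0.01 in RWR, and A_44_P394993 had -0.45 and -0.55 in WR and 0.64 and 0.43 in RWR. A_44_P976842 (difference 0.82 and 1.07), A_44_P982756 (0.71 and 0.76) and A_44_P685354 (0.63 and 0.59) completed those higher in RWR.

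Among the unnamed probes lower in RWR, A_44_P286311 had the largest difference. It stood at 0.24 and -0.09 in WR and at -0.86 and -1.27 in RWR, a difference of -1.09 and -1.18. A_44_P443916, which at a mean signal of 428 was the brightest of these, had -0.38 and -0.55 in WR, -1.08 on one RWR chip and lower still on the other, and a difference of -0.70 and -0.71. It was below sedentary on all chips, and further below it in RWR. A_44_P970369, A_44_P374182, A_44_P593373 and A_44_P434724 had mean differences between -0.66 and -0.92. The label of A_44_P434724 is a RefSeq mRNA that was matched to no gene symbol here, so its gene may be a known one. Nearest to the 1.5-fold limit lay A_44_P685354 inside it, with 0.59 in its weaker dye order, and A_44_P673362 outside it, with -0.58.

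The running channels were also compared directly in the same dye, without the reference, after quantile normalization between the chips. Of the 17 probes, 16 had the same sign in both direct differences as through the reference, and 10 were past 1.5-fold in both. The exception in sign was Sectm1b. The same comparison between the sedentary channels gives the technical background, since the RNA is assumed to be the same. It gave 64 probes higher and 41 lower on the RWR chips past 1.5-fold, against 39 and 34 for the running channels. Without the reference, the running channels therefore held no more differences of this size than the sedentary channels did. For 14 of the 17 probes, the direct difference of the running channels was larger than that of the sedentary channels. The 17 were picked for a large difference that contains the same running signals, which favours these counts. The shares of all probes with matching signs, or with the larger difference in the running channels, were not counted.

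Below the 1.5-fold limit, the named genes highest in RWR after Gal encode proteins of several kinds. They included receptors, namely P2ry13 for ADP (0.41 and 0.43), C5ar1 for the complement fragment C5a (0.39 and 0.50) and S1pr1 for sphingosine 1-phosphate (0.52 and 0.35). Chrdl1, a secreted antagonist of bone morphogenetic proteins, had 0.52 and 0.37. Alg5, a glucosyltransferase of protein N-glycosylation, had 0.63 and 0.37 at 1 probe, but 2 other probes of the gene had mean differences of -0.02 and 0.11. Dusp11, a phosphatase that acts on RNA, had 0.48 and 0.37 and was the brightest of this group, with a mean signal of 611. Nde1, a centrosome protein of neuronal migration, had 0.44 and 0.39. Utp14a, Sycp2, Zfp772 and Crisp3 had mean differences of 0.39 to 0.42, at mean signals of 31.0 to 38.2, and a second Utp14a probe had -0.18.

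For several of these genes the sedentary channels differed between the chips by more than the running channels did. P2ry13 had 0.12 in the running channels and -0.27 in the sedentary channels, C5ar1 0.13 and -0.32, Sycp2 0.02 and -0.38, and Crisp3 -0.15 and -0.58. S1pr1, at 0.43 and 0.02, Chrdl1, at 0.54 and 0.10, and Nde1, at 0.49 and 0.08, had most of the difference in the running channels.

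Other named genes that were lower in RWR were measured at signals of 21.1 to 57.5. Pomt2, an O-mannosyltransferase of dystroglycan, had -0.51 and -0.54, Cdc27, a subunit of the anaphase-promoting complex, -0.40 and -0.57, and Slc38a6, an amino acid transporter of synapses, -0.45 and -0.50. A second eligible probe of Cdc27 had a mean difference of 0.03 and one of Slc38a6 0.02, so neither difference was seen at both probes. Nox1, an NADPH oxidase, had -0.49 and -0.44, yet its running channels were higher in RWR, by 0.59 and 0.39, and its sedentary channels were higher by more, at 1.15 and 0.85. Capn5, a calpain protease, had -0.40 and -0.43. Spats1, Clca4l, Olr59, Ppp1r2l1, Arsl and Niban1 had mean differences from -0.53 to -0.65. Samd14 had -0.43 at 1 probe and -0.05 to 0.04 at 3 others.

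The interferon-induced genes lay mostly on one side of 0. Of 21 eligible genes, 17 were above 0 in both dye orders and none was below 0 in both, where 28.5% of all genes were above and 29.7% below. The median was 0.14, against -0.0015 over 5927 genes, and no member passed 0.322 in both orders. B2m, the light chain of MHC class I, had 0.12 and 0.05, and Psmb9, an immunoproteasome subunit, 0.26 and 0.19. Rsad2, the antiviral protein viperin, stood at -0.82 and -0.79 over sedentary in WR and at -0.54 and -0.61 in RWR, a difference of 0.29 and 0.18. With normexp background correction its mean difference was -0.03, and its second probe was not eligible.

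A further 3 members, picked after their values were seen, had the steadiest differences. Irf7, a transcription factor that drives type I interferon genes, stood at -0.34 and -0.37 in WR and at -0.05 and -0.11 in RWR. Oas1a, an antiviral oligoadenylate synthetase, had -0.50 and -0.35 in WR and -0.23 and -0.11 in RWR. Stat2 had -0.37 and -0.34 in WR and -0.02 and -0.14 in RWR. All of these stood below sedentary in both groups, and nearer to it in RWR. In WR, 15 of the 21 genes were below sedentary on both chips, and in RWR 10 were, against 15.3% and 17.1% of all genes.

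The shift of the interferon list was not carried by the running channels alone, and by the medians it lay more in the sedentary channels. Its median was 0.012 in the running channels directly and -0.093 in the sedentary channels, where the medians over all genes were -0.022 and -0.023. In the sedentary channels, 12 of the 21 genes were below 0 in both dye orders, where 43.0% of all genes were, and in the running channels 9 were above 0 in both, where 24.7% of all genes were. The median through the reference was 0.094 with normexp background correction. What moved the sedentary signal of these genes between the chips was not tested.

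Genes of the interferon response often carry the interferon-stimulated response element in their promoter. The element was searched as 2 copies of GAAA with 2 bases of any kind between them, on both strands of the 250 bases before the start. It was found in 11 of the 17 promoters that could be matched for this list (64.7%) and in 3.41% of all 33469 promoter windows. The promoters of Irf7 and Oas1a (RefSeq, GRCr8) are shown as those of 2 members with steady differences, with the element in capitals. In Oas1a 2 matches overlap, and in Irf7 the match is on the other strand. Irf7 lies at chr1:205800024-205800273 on the minus strand and Oas1a at chr12:41330216-41330465 on the plus strand. A match describes the sequence and is not evidence of binding.
Irf7: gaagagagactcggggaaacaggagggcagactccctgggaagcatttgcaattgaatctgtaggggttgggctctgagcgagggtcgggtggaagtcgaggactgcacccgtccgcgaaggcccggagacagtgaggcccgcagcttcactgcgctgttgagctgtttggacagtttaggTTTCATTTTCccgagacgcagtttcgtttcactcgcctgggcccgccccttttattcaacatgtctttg
Oas1a: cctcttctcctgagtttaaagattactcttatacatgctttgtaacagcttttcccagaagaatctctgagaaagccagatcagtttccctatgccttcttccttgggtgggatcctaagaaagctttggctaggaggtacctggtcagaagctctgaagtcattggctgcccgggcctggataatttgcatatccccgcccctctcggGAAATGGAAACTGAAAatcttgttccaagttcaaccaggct

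Olfactory receptors, of which 101 of 1089 were eligible, differed in both channels by a like amount, at a median signal of 78.4. Their median was 0.27 in the running channels and 0.26 in the sedentary channels, but 0.0061 through the reference. Through it, 24 were above 0 in both orders and 25 below, against 28.5% and 29.7% of all genes. Olr1092 and Olr59 were lower and Or10al4c was higher past 0.322, the last with 0.33 and 0.39.

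Chemokines and cytokines showed no common shift between the running modes. Of 42 eligible genes of this list, 10 were above 0 in both orders and 12 below, against 28.5% and 29.7% of all genes. The median was -0.0082. Il15, a cytokine known from muscle and from T and natural killer cells, was the 1 member past 0.322, with -0.34 in both orders, but its running channels gave a mean of -0.10 and its sedentary channels 0.31. Cxcl10, a chemokine induced by interferon, was far below sedentary on all chips, at -1.28 and -1.76 in WR and at -1.03 and -1.84 in RWR, and its difference of 0.25 and -0.08 changed sign with the dyes. The probes that could be named for Cxcl1, Cxcl9, Ccl2, Prl and Pdk4 were not eligible, since each was not well above background in at least 1 channel, and no difference is given for them.

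Immediate early genes, which neurons transcribe within minutes of activity, were measured in 31 of 37 cases. Of these, 12 were above 0 in both orders and 5 below, where 28.5% of all genes were above and 29.7% below. The median was 0.027, and none of the 31 passed 0.322. Jund, a subunit of AP-1, had 0.22 and 0.24. Arc, whose product acts at synapses, had 0.06 and 0.15 and was above 0 at all 10 spots in both orders. Egr1 had 0.06 and 0.03 over its 10 spots, and Fos had 0.26 and 0.09 at a single dim spot. The vasopressin receptor gene Avpr1a had -0.16 ± 0.35 and 0.07 ± 0.22 (SD over 9 spots), so its difference was smaller than the spread over spots.

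Markers of cell types and regions bear on how alike the dissections were. Prkcd, a protein kinase C that marks thalamic relay neurons, was spotted 10 times and was the 1 eligible thalamic marker past 0.322. It stood at -0.04 and -0.21 in WR and at 0.30 and 0.18 in RWR, a difference of 0.34 ± 0.043 and 0.39 ± 0.045 (SD over 10 spots). Of the thalamic and habenular list, 8 of 12 markers could be named and 4 were eligible. All 4 were above 0 in both orders, as were 28.5% of all genes. Slc17a6, the vesicular glutamate transporter of the thalamus, had 0.06 and 0.04, Calb2, the calcium-binding protein calretinin, 0.15 and 0.08, and Tac3, the precursor of neurokinin B, 0.14 and 0.08. The summed signal of these 3 without Prkcd was 6113 to 6657 in WR, 6483 to 7521 in RWR and 5984 to 6867 in the sedentary channels. Most of each sum was Tac3, with 4407 and 4129 in WR and 5067 and 4370 in RWR. Its sedentary signal was 4324 and 3855 on the WR chips and 4505 and 3872 on the RWR chips. Rgs16 was above background in no channel. The part of thalamic tissue in the difference of Prkcd was not tested.

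Markers of the hippocampal subfields differed little. The 4 eligible CA1 markers had a median of 0.095, with Ccn3 at 0.16 and 0.11. The 3 dentate granule cell markers had -0.089, with Pdzd2 at -0.21 and -0.10 and Calb1 at -0.0029 and -0.043. The 7 of CA2 and CA3 had -0.043, and 9 pan-neuronal genes -0.040. Glia were close to 0 as well, with medians of 0.0078 for 14 astrocyte genes, 0.025 for 14 oligodendrocyte and myelin genes and 0.062 for 15 microglia and complement genes. Mbp, a main protein of myelin, had -0.22 and -0.12, and C1qb, a complement subunit of microglia, 0.05 and 0.10. Of 7 meningeal and fibroblast markers, 4 were above 0 in both orders and 0 below, against 28.5% and 29.7% of all genes. Col1a2 had 0.18 and 0.13, and Dcn had 0.13 and 0.22. None of these lists had a member past 0.322 in both orders.

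Over all 46 lists, medians ran from -0.089 for dentate granule cells to 0.17 for the choroid plexus. The median of the 3 dentate genes was 0.019 with normexp background correction and 0.022 without any, the opposite sign, and that of the 4 choroid plexus genes was 0.0031 with the control in Cy3 and 0.39 with the control in Cy5. The interferon-induced genes, at 0.14, and the thalamic markers, at 0.11, were next to the highest.

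Energy metabolism and translation were measured in nearly all listed genes and differed by small amounts. Of 47 respiratory chain subunits, 8 were above 0 in both orders and 24 below, with a median of -0.027. Of 64 cytosolic ribosomal proteins, 6 were above and 30 below, with a median of -0.038. The ribosomal genes had a median of 0.0002 in the running channels and 0.020 in the sedentary channels, and the respiratory chain genes -0.010 and 0.010, where all genes had -0.022 and -0.023. In both lists the share below 0 was above that over all genes, of which 28.5% were above and 29.7% below, and none passed 0.322. The median signal was 17500 for the respiratory chain and 22190 for the ribosomal genes, against 565 over all genes. Since the dye orders were more alike at bright probes, the share over all genes is not a matched background for these lists. Of 30 enzymes of glycolysis and the TCA cycle, 6 were above and 12 below. Genes of fuel transport and switching had a median of 0.014, with Pdk2, a kinase that restrains pyruvate oxidation, at 0.14 and 0.19. Glucocorticoid-responsive genes had 0.021, with the metallothionein gene Mt1 at 0.20 and 0.12, and clock genes 0.0056, with Dbp at -0.011 and 0.022.

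Growth factor and synaptic lists had small medians, but single members reached further. Mean differences ran from -0.053 (Igf1r) to 0.38 (Igfbp5) among insulin-like growth factor genes. Among fibroblast growth factors and receptors they ran from -0.20 (Fgfr1) to 0.31 (Fgf5). Insulin-like growth factor genes had a median of 0.075 over 10 members, with Igf2 at 0.11 and 0.10. Of these members, 6 were above 0 in both orders and 1 below, against 28.5% and 29.7% of all genes. The VEGF, angiopoietin and hypoxia list had -0.0073, fibroblast growth factors and receptors -0.0083, and neurogenesis and neurite growth markers -0.027. Glutamate receptor subunits had -0.020, with Grin1, the obligatory NMDA receptor subunit, at 0.08 and 0.21, and GABA-A receptor subunits 0.023. Presynaptic release genes had -0.0045 and postsynaptic scaffolds -0.032, with Nrgn, a calmodulin-binding protein of dendritic spines, at 0.09 and 0.20. None of these lists had a member past 0.322 in both dye orders.

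Detection itself also differed between the running channels. In RWR, 425 probes were well above background on both chips that were so in WR on neither, 100 of them with a gene symbol, and the converse held for 125 probes, 21 with a symbol. These probes lie outside the comparison, and no fold is given for them. The matching counts for the sedentary channels were not made. The RWR chips were also the brighter ones, with a median processed signal of 69.3 to 78.3 in the running channel against 62.2 to 71.3 for WR, and of 71.9 to 74.6 against 66.4 to 66.7 in the sedentary channel. The share of spots well above background was 69.1% to 77.9% in the RWR channels and 69.6% to 71.7% in the WR channels. In the sedentary channels it was also higher on the RWR chips. There it was 77.6% with the control in Cy3 and 82.5% with the control in Cy5, against 67.5% and 76.9% on the WR chips. The part of chip brightness in these counts was not tested.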

How the data were processed

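The scanner files were those of Agilent Feature Extraction 11.0.1.1 (version from the submitters' processing notes). The deposited log ratios are log10 of Cy5 over Cy3, made by the authors' software after background subtraction, spatial detrending and LOWESS dye normalization. The deposited processed signals are background-subtracted, dye-normalized intensities of each channel on a linear scale. Log ratios were turned to running over sedentary by the dyes in the labels, converted to log2, averaged over the spots of a probe after flagged spots were dropped, and subtracted between chips of the same dye order. The series table held the same log10 ratios and served as an alternative. All value columns were assigned to a sample (0 were not).

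Probes were named through RefSeq accessions in the table of rat genes. The members of the comparison and the gene and marker lists were chosen with earlier results of these data known. Named were the 15 highest and 15 lowest gene-named probes and the 5 highest and 5 lowest unnamed ones, ranked by the smaller of their differences in both dye orders, list members past 0.322 (otherwise the brightest members), and genes of interest to the study whatever their value. The other unnamed probes past 1.5-fold were added so that all 17 are given. With 1 pool per group there is no biological replicate and no test. A gene in a list is represented by its named probe with the highest mean signal. Alternatives were calls on the mean of the dye orders, cutoffs of 0.322 on the log2 scale and 2-fold, no filter on dim probes, a filter of 2.58 times the combined deposited error of the log ratios, median signals with normexp background correction (limma 3.58.1, R 4.3.3, offset 50) or none followed by loess, centring at 20 signal levels, genes as units, a direct comparison of the running channels and each dye order alone. Other steps used Python 3.11.15, numpy 2.4.6, pandas 2.3.3 and scipy 1.17.1, and were tested on simulated data. Promoter windows came from RefSeq's GRCr8 annotation, which was used for names and these windows only. Probe sequences were not used here. Some genes that the rule would name are not reported here.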

Additional observations from a re-analysis of the deposited data

Results flagged for a closer look

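Of the 17 probes past 1.5-fold in both dye orders, 8 were on one side of sedentary on both WR chips and on the other side on both RWR chips. The 17 were picked for a large difference between the groups, which favours opposite sides. The share of all probes with such opposite sides was not counted. For all 8 the difference between the running modes was not tested, since each group is 1 pool.

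Below sedentary in WR and above it in RWR were Ttr, with a mean log2 difference of 0.98, Prl3d4 with 0.68, and the unnamed probes A_44_P381994 with 2.46, A_44_P394993 with 1.03 and A_44_P982756 with 0.74. Above sedentary in WR and below it in RWR were Olr1092, with -0.79, and the unnamed probes A_44_P374182 and A_44_P593373, each with -0.70. Only Ttr and A_44_P381994 of these 8 were still past 1.5-fold in both dye orders with normexp background correction.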

How the results depend on the processing

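The counts of 9 higher and 8 lower probes were the same in the series table and 9 and 11 after centring by signal level. They were 20 and 38 by the mean of the dye orders, 116 and 127 at the lower limit of 0.322, 3 and 1 at 2-fold, 379 and 1135 with no filter on dim probes, 3 and 1 with the error filter, 4 and 0 with normexp, 2 and 0 without background correction, 39 and 34 by the running channels directly, and 3 and 1 with genes as units. One dye order alone gave 82 to 196 higher and 113 to 179 lower. The correlation of the dye orders was -0.009 without the filter on dim probes, 0.413 with normexp, 0.293 without background correction and 0.311 for the running channels directly. The causes were not tested. Of the 17 probes, 3 stayed past 1.5-fold with normexp, 2 without background correction and 10 directly, and all kept the sign of their mean. These settings start from the same spots, so a kept sign is favoured by how the 17 were picked. The sign of a list's median turned in 13 of 46 lists with normexp, 12 without background correction and 15 directly. No paired analysis was possible because each group is 1 pool and the chips of a pair repeat it. Dim probes, where background makes up much of the signal, limit these values, and differences between rats cannot be seen in pools.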
